A study of Mus musculus with 6 samples.

Results

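The 9 genes described here are cell-cycle regulators and p53 targets, read in CD4 T cells. The cyclin-dependent kinase (CDK) inhibitors Cdkn1a, Cdkn1b, Cdkn2c and Cdkn2d and the D cyclins Ccnd2 and Ccnd3 act between rest and DNA replication. The others are the p53 targets Mdm2, Ccng1 and Phlda3. All 9 were taken by name from the 49315 Ensembl gene identifiers of the count tables. All were among the 12838 genes that passed the filter on low counts. The study sequenced RNA from spleen CD4 T cells of mice that carry the CBir1 T-cell receptor transgene (TCR Tg), which recognises a flagellin of gut bacteria. It set libraries made with and without CAMCI, a treatment that pairs antigen with inhibitors of cell metabolism, side by side, with 1 library per condition.

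In the protocol given with the labels, CD45.1 CBir1 TCR Tg CD4+CD44- cells were given to C57BL/6.CD45.2 mice on day 0. Immunisation followed on days 1 and 7, with 50 ug of CBir1 flagellin together with 1 ug of CT. The No treatment mice then received neither MEP1 nor an inhibitor. The other 4 groups received 3 ug of the antigen MEP1 on days 28 and 35, followed by 5 daily injections: the vehicle CMC alone (MEP1+CMC), metformin in CMC (MEP1+Metformin), rapamycin in CMC (MEP1+Rapamycin) or both in CMC (MEP1+Metformin+Rapamycin). Every recipient had a further 3 ug of MEP1 as a challenge on day 56, and the donor cells were sorted on day 63. The remaining library is a naïve CD4 control of CBir1 TCR Tg cells, taken here as not transferred, although the same protocol text is attached to it. The header in the No treatment file names it as not challenged, which conflicts with its label. The label was followed here, so any difference from that library may also be one of challenge. Mouse age, mouse sex and any pooling of mice are not given in the sources used here.

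D cyclins bind CDK4 and CDK6 and start the phosphorylation of the retinoblastoma protein, which releases E2F transcription factors and lets a cell leave G1. The INK4 inhibitors Cdkn2c (p18) and Cdkn2d (p19) block CDK4 and CDK6, while Cdkn1a (p21) and Cdkn1b (p27) bind cyclin-CDK complexes more broadly; Cdkn1b is a well-known brake of resting T cells. p53 induces Cdkn1a, Mdm2, Ccng1 and Phlda3, and Mdm2 in turn marks p53 for degradation. Rapamycin inhibits mTOR complex 1, a kinase that couples growth signals to protein synthesis, and metformin lowers mitochondrial energy supply.

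Libraries held 26139000 (naïve) to 60622310 (No treatment) counts. Levels are given as TMM CPM, the usual CPM after scaling of the library totals by the trimmed mean of M values, and a level compared between genes is also divided by exon length (TMM RPKM). All 7 CD4 T-cell markers had counts in every library, with a summed level of 5924 to 8790 TMM CPM. The 7 macrophage and monocyte markers summed to 2605 TMM CPM in No treatment, 271 to 528 in the other 4 transferred libraries and 39.9 in naïve cells. The 5 B-cell markers summed to 11.3 to 58.8 in transferred cells and 98.6 in naïve cells, and the 3 NK-cell markers to 1.63 to 10.2, with all 3 at 0 in naïve cells. Loci that resemble ribosomal RNA took 15.4% of the naïve counts, 3.13% of those of MEP1+Rapamycin and 1.00% to 1.28% of the others. Xist stood at 262 TMM CPM in MEP1+CMC against 0.218 to 0.486 in the 3 inhibitor libraries, and the Y-linked Ddx3y at 0.307 against 62.0 to 95.8. An inhibitor's difference from MEP1+CMC therefore cannot be told apart from one between mice that differ in sex-linked expression. Between the library given both inhibitors and each of those given 1, none of 5 sex-linked genes differed by 2-fold. No treatment had both Xist (24.2) and Ddx3y (35.9), and the naïve library had Xist (43.1) with Ddx3y at 0.377.

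The promoters of 3 p53-responsive members are shown because they hold the p53 decamer, the unit that is repeated in a p53 response element. RefSeq gave windows for 8 of the 9 genes. Each sequence runs over the 250 bases before an annotated start on GRCm38.p6, with matches to the decamer in capitals (both strands searched; the decamer is a palindromic pattern, so its strands overlap):
Cdkn1a, chr17:29090729-29090978, plus strand: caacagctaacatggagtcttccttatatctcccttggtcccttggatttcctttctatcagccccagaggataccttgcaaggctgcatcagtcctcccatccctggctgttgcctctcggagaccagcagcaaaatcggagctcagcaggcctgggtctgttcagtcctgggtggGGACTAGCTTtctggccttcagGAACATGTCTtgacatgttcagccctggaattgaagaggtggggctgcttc
Mdm2, chr10:117710759-117711008, minus strand: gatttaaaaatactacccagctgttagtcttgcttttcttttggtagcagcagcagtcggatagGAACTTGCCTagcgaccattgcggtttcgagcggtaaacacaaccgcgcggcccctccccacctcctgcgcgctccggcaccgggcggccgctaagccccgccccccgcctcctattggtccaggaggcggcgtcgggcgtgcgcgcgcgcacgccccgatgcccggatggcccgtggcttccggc
Ccng1, chr11:40755287-40755536, minus strand: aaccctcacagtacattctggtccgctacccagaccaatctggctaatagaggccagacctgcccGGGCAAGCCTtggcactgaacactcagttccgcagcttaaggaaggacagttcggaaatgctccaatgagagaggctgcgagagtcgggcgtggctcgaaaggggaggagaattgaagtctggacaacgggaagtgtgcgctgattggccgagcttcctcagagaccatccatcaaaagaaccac
The Cdkn1a window, before the more distal of its 2 annotated starts, held 2 decamers, which begin 73 and 51 bases before the start. The window before its other start, not shown, had none. Mdm2 had 1 at 186 bases and Ccng1 had 1 at 185 bases. Cdkn2d also had 1, at 102 bases, and the window of Phlda3 had none. Of 32817 mouse windows of this length, 7.12% held a decamer, and 21 (0.064%) held a pair with at most 13 bases between them, as that of Cdkn1a did. These matches describe letters, not binding.

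Cdkn1a, on chromosome 17 (29090979 to 29100722 on GRCm38, as are all positions of genes here), encodes p21 and was the member whose level varied most. It had 10 counts in the naïve library, or 0.538 TMM CPM. Among transferred cells its level was 9.78 TMM CPM in No treatment, 11.4 in MEP1+CMC, 6.23 in MEP1+Metformin, 4.21 in MEP1+Rapamycin and 2.22 in MEP1+Metformin+Rapamycin. The 3 inhibitor libraries lay below both transferred libraries without an inhibitor, and the lowest was the one given both inhibitors. The share of all genes that split in this way was not counted. The highest transferred level was 5.14-fold the lowest.

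Cdkn1b, on chromosome 6 (134920401 to 134925513), encodes p27. Its level was 36.6 TMM CPM in naïve cells, 43.3 in No treatment, 53.2 in MEP1+CMC, 54.4 in MEP1+Metformin, 70.3 in MEP1+Rapamycin and 55.4 in MEP1+Metformin+Rapamycin. It was therefore highest with rapamycin alone, where Cdkn1a was low. Within a library, where no scaling between libraries enters, the ratio of Cdkn1a to Cdkn1b per exon length was 0.462 in No treatment and 0.440 in MEP1+CMC. It was 0.234 with metformin, 0.122 with rapamycin (95% counting interval 0.103 to 0.144), 0.0822 with both (0.0682 to 0.0984) and 0.0302 in naïve cells (0.0144 to 0.0558). All such intervals cover counting error only, not the spread between mice.

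Cdkn2c, on chromosome 4 (109660876 to 109667189), encodes the INK4 inhibitor p18. Its level was 5.65 TMM CPM in naïve cells, 14.6 in No treatment, 22.1 in MEP1+CMC, 12.9 in MEP1+Metformin, 6.37 in MEP1+Rapamycin and 12.2 in MEP1+Metformin+Rapamycin. The rapamycin library was thus close to the naïve one, while the library given both inhibitors was close to metformin alone. Cdkn2d, on chromosome 9 (21288410 to 21291407), encodes p19 and had the opposite profile against naïve cells. It stood at 276 TMM CPM in the naïve library, 134 in No treatment, 78.1 in MEP1+CMC, 106 in MEP1+Metformin, 119 in MEP1+Rapamycin and 112 in MEP1+Metformin+Rapamycin. MEP1+CMC had both the highest Cdkn2c and the lowest Cdkn2d level of the 6 libraries.

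Per exon length, Cdkn2d was the most abundant transcript of the 7 CDK inhibitors of both families. It made up 93.4% of their summed TMM RPKM in naïve cells, 79.6% in No treatment, 64.9% in MEP1+CMC and 76.0% to 78.6% in the 3 inhibitor libraries. Cdkn1b followed with 4.28% in naïve cells and 8.90% to 16.0% in transferred cells. Cdkn2a, the INK4 gene tied to replicative senescence, had 0 to 7 counts in a library, and Cdkn2b had 3 to 78.

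Ccnd2, on chromosome 6 (127125162 to 127152193), and Ccnd3, on chromosome 17 (47505051 to 47599691), encode the D cyclins that T cells use. Ccnd2 stood at 362 TMM CPM in naïve cells, 281 in No treatment, 280.0 in MEP1+CMC, 349 in MEP1+Metformin, 422 in MEP1+Rapamycin and 381 in MEP1+Metformin+Rapamycin. It was higher in each of the 3 inhibitor libraries than in both transferred libraries without an inhibitor. As for Cdkn1a, the share of all genes with such a split was not counted. Ccnd3 stood at 556 TMM CPM in naïve cells and at 245, 258, 237, 268 and 269 in the transferred libraries in the same order. Its transferred levels spanned 1.13-fold, the narrowest range of the 9 genes.

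The ratio of Ccnd2 to Ccnd3 was lower in the naïve library than in each transferred one. Ccnd2 was 0.608 times Ccnd3 per exon length in the naïve library (95% counting interval 0.590 to 0.627). The ratio was 1.07 in No treatment (1.04 to 1.09) and 1.01 in MEP1+CMC (0.991 to 1.04), where the interval includes 1. It was 1.37 with metformin (1.34 to 1.40), 1.47 with rapamycin (1.43 to 1.51) and 1.32 with both (1.29 to 1.35). These 3 intervals, which cover counting error only, do not overlap those of the libraries without an inhibitor. How many other pairs of genes split in this way was not counted. Ccnd1, the third D cyclin, had 14 to 120 counts. Ccnd2 overlaps 9330179D12Rik on the other strand (33 to 231 counts), and Ccnd3 overlaps Bysl on the other strand (1258 to 2049 counts). The shared stretches run from 127149389 to 127152193 for Ccnd2 and from 47599331 to 47599691 for Ccnd3. The strand setting is not given in the sources used here, so reads of a gene and its partner cannot be told apart within these stretches.

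**Figure D1:**
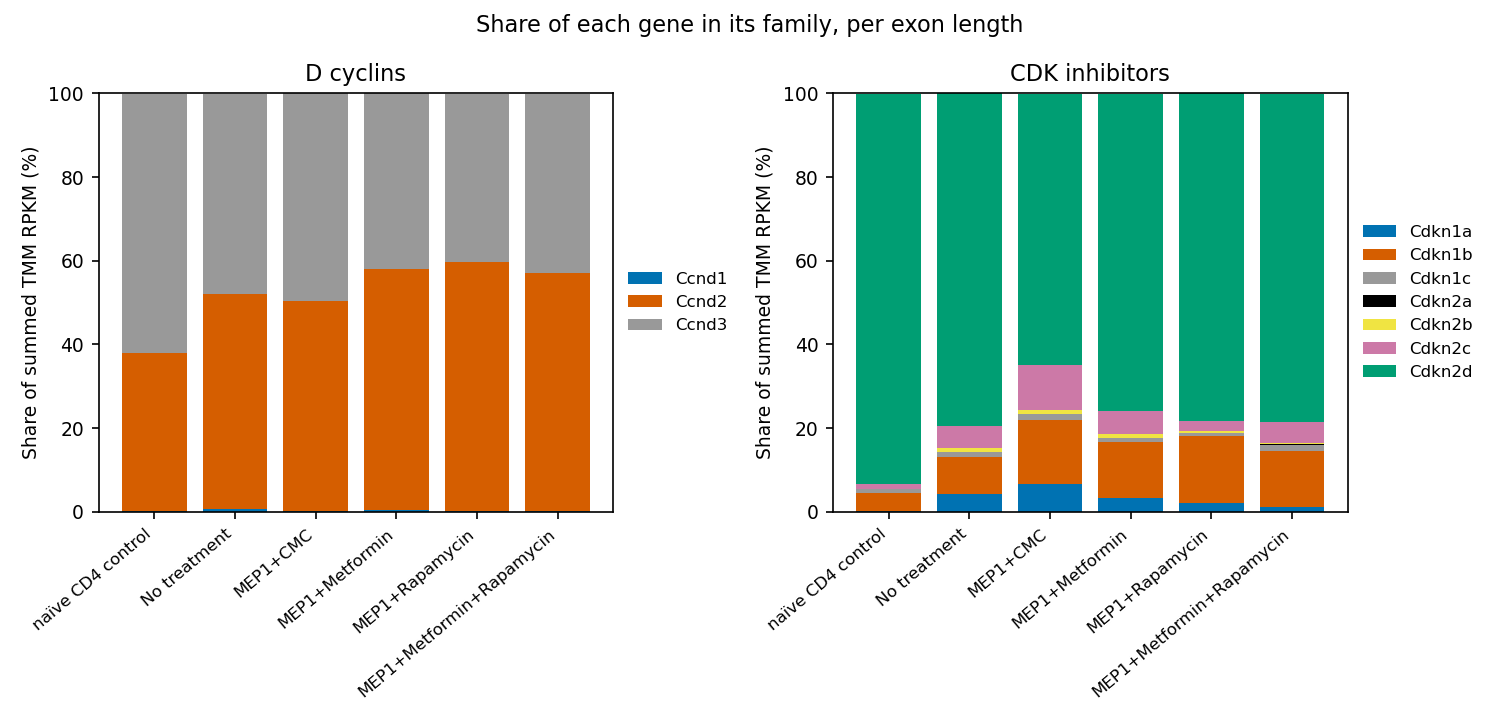
Stacked bars give each gene's share (%) of the summed TMM RPKM of its family in each of the 6 libraries, with D cyclins on the left and CDK inhibitors on the right. Ccnd2 took 37.8% of the D cyclins in naïve cells and 50.2% to 59.4% in transferred cells, and Cdkn2d took 64.9% to 93.4% of the CDK inhibitors.

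Mdm2, on chromosome 10 (117688888 to 117710758), encodes the ubiquitin ligase that limits p53. Its level was 67.1 TMM CPM in naïve cells, 119.6 in No treatment, 109 in MEP1+CMC, 112.5 in MEP1+Metformin, 69.4 in MEP1+Rapamycin and 103 in MEP1+Metformin+Rapamycin. The rapamycin library was again the one near the naïve level. Ccng1, on chromosome 11 (40748552 to 40755311), encodes cyclin G1, a p53 target that acts on Mdm2 through a phosphatase. Its level was 117 TMM CPM in naïve cells, 173 in No treatment, 128 in MEP1+CMC, 112 in MEP1+Metformin, 72.7 in MEP1+Rapamycin and 132 in MEP1+Metformin+Rapamycin. The rapamycin library was lowest of the 6, and the naïve level lay within the transferred range.

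Phlda3, on chromosome 1 (135766119 to 135769136), encodes a p53-induced repressor of Akt signalling and had 14 to 240 counts. Apart from naïve cells and MEP1+Metformin+Rapamycin, where Cdkn1a was lower, it was the scarcest member. Its level was 0.754 TMM CPM in naïve cells, 2.00 in No treatment, 4.09 in MEP1+CMC, 1.88 in MEP1+Metformin, 2.75 in MEP1+Rapamycin and 3.14 in MEP1+Metformin+Rapamycin. MEP1+CMC was highest, as for Cdkn1a and Cdkn2c. The 4 p53 targets among the members did not share 1 order over the libraries: the lowest transferred library was the one with both inhibitors for Cdkn1a, rapamycin alone for Mdm2 and Ccng1, and metformin alone for Phlda3.

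**Figure D2:**
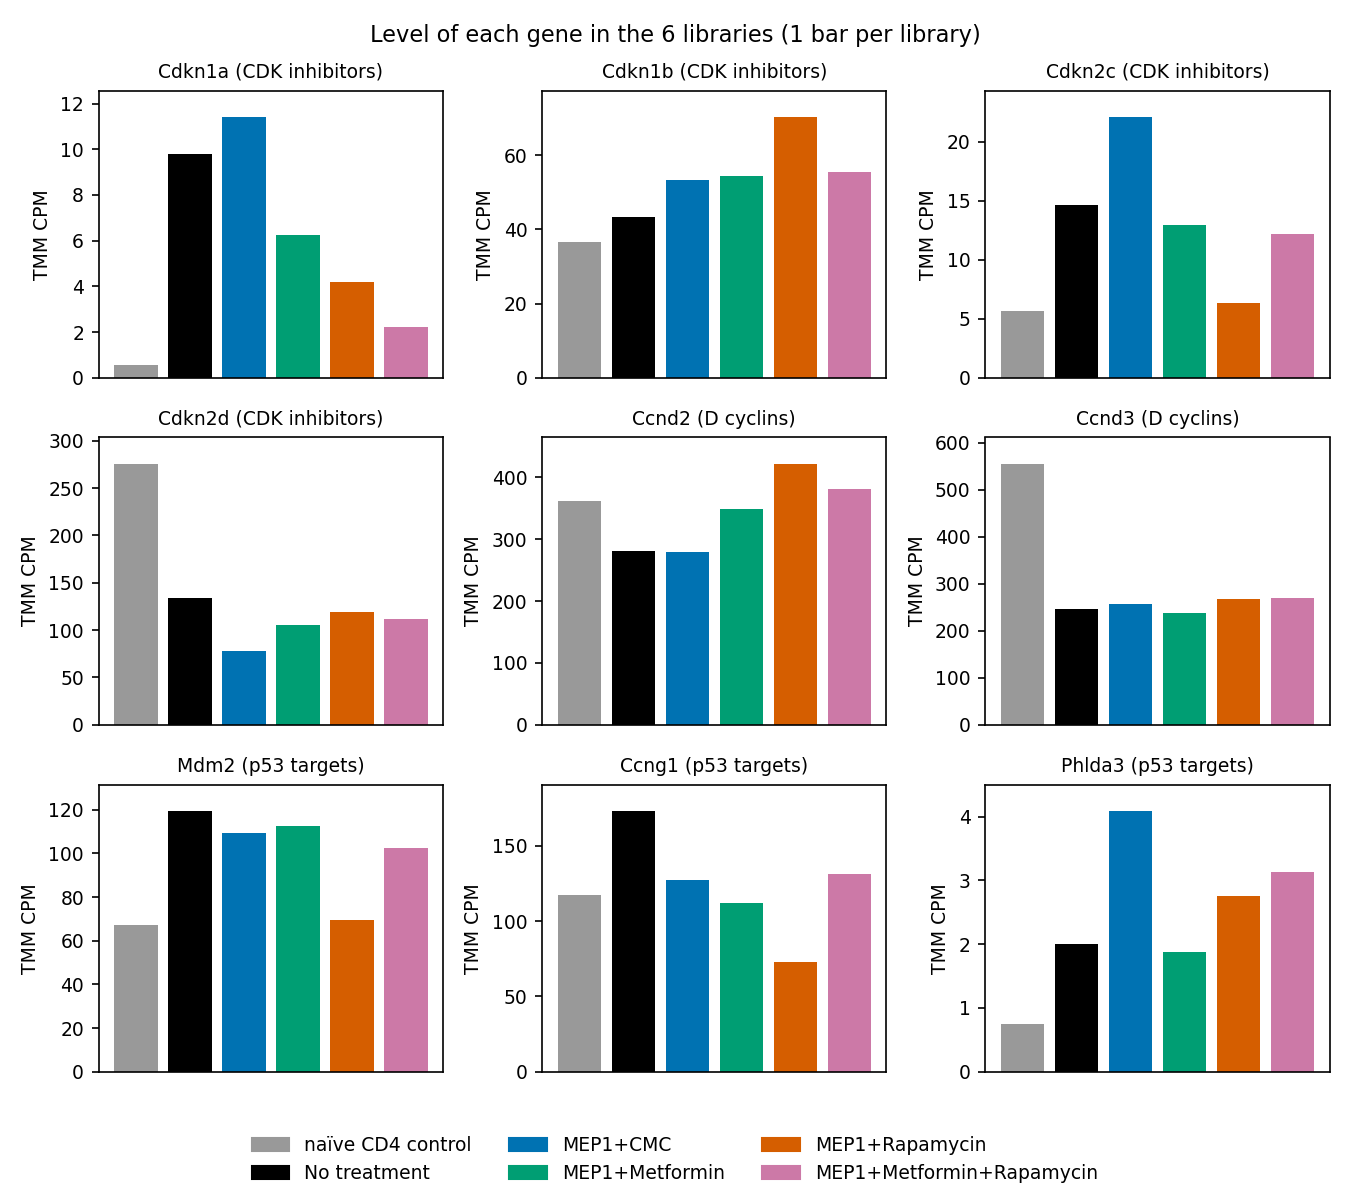
Bars give the TMM CPM of each of the 9 genes in the 6 libraries, 1 library per bar, on linear axes that start at 0 and differ between panels. Cdkn1a runs from 0.538 in naïve cells to 11.4 in MEP1+CMC, and Ccnd3 is at 556 in naïve cells against 237 to 269 in transferred cells.

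The first comparison asks how cells that were transferred and immunised differ from naïve cells. An edgeR quasi-likelihood model set the 5 transferred libraries against the lone naïve library, which is assumed to vary like the others. It called 9.81% of the genes tested at an adjusted p below 0.05 (4.19% rose and 5.62% fell) and 2 of the 9 members, both of which fell. Ccnd3 fell by 1.12 on the log2 scale (SE 0.20, edgeR adjusted p = 0.0105) and was lower than in naïve cells in 5 of 5 transferred libraries. Cdkn2d fell by 1.33 (SE 0.26, edgeR adjusted p = 0.014), also in 5 of 5.

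The largest difference, in Cdkn1a, did not pass. Its log2 fold change was 3.67 (SE 1.59, edgeR adjusted p = 0.181), with the naïve level below 5 of 5 transferred libraries. DESeq2 gave 3.62 with an adjusted p of 0.000373 for the same gene, and edgeR's legacy quasi-likelihood test gave 3.65 with an adjusted p of 0.0475. The 13 alternatives ranged from 0.000373 to 0.541. Cdkn1b, Cdkn2c, Mdm2 and Phlda3 had fold changes of 0.60, 1.29, 0.61 and 1.88, each with its naïve level below 5 of 5 transferred libraries, and edgeR adjusted p-values of 0.199, 0.244, 0.218 and 0.252. Here and above, each 5 of 5 reuses the lone naïve library. The share of all genes with such an order was not counted. Ccnd2 (-0.08) and Ccng1 (0.08) had naïve levels within the transferred range. Without the MEP1+Rapamycin library, Mdm2 was called (0.72, edgeR adjusted p = 0.0472).

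The calls depended on how the naïve library was scaled. With library totals in place of TMM, the median fold change of all genes moved from 0.06 to 0.65. Ccnd3 (-0.53, edgeR adjusted p = 0.0794) and Cdkn2d (-0.74, edgeR adjusted p = 0.0726) then no longer passed, and Cdkn1b (1.20, edgeR adjusted p = 0.0483) and Mdm2 (1.20, edgeR adjusted p = 0.025) did. Over all genes the split was 538 that rose and 721 that fell with TMM, and 2482 and 190 with totals. Cdkn1a, Cdkn1b, Cdkn2c, Mdm2 and Phlda3 kept fold changes above 0, and Cdkn2d and Ccnd3 below 0, under both scalings, while Ccnd2 changed sign (-0.08 and 0.53). In bulk RNA, fewer cells that hold a transcript and less of it per cell cannot be told apart.

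**Figure D3:**
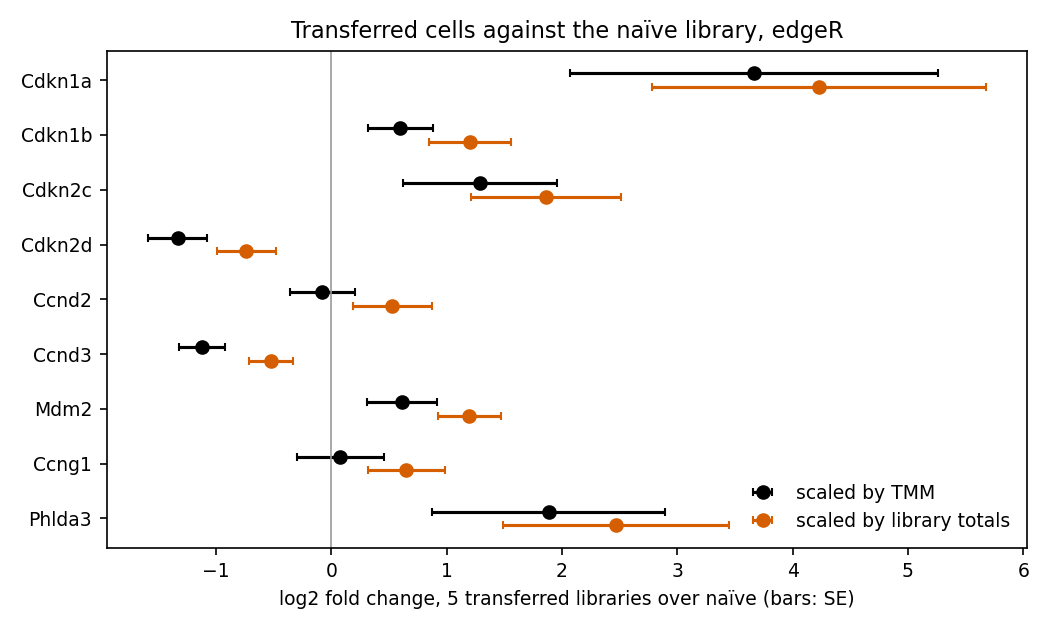
Points give the edgeR log2 fold change of each gene in the 5 transferred libraries over the naïve library, with bars of 1 SE, scaled by TMM (black) or library totals (orange). Every gene lies further to the right with totals: Ccnd3 moves from -1.12 to -0.53 and Mdm2 from 0.61 to 1.20.

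The single pair No treatment against naïve was read by a size rule, since 1 library per group allows no test: a ratio of at least 2-fold whose 95% counting interval excludes no change. It held for 23.8% of genes (16.2% higher, 7.53% lower) and for 5 of the 9 members. Cdkn1a was higher by 4.18 on the log2 scale (3.29 to 5.25), an 18.2-fold ratio. Cdkn2c (1.37) and Phlda3 (1.41) were higher, and Cdkn2d (-1.04) and Ccnd3 (-1.18) were lower. With library totals Cdkn2d (-0.62) and Ccnd3 (-0.76) did not pass and Mdm2 (1.25) did, and the split over all genes went from 2084 higher and 967 lower to 3205 and 456. The macrophage and monocyte marker sum was 2605 TMM CPM in No treatment against 39.9 in naïve cells, and its part in these ratios was not tested. MEP1+CMC, where that sum was 528 and still above the naïve 39.9, had Cdkn1a at 11.4 TMM CPM against 9.78 in No treatment. These libraries differ in treatment as well, and the relation of the marker sum to Cdkn1a was not tested.

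MEP1 on days 28 and 35, followed by the vehicle CMC, was read from MEP1+CMC against No treatment. MEP1 and CMC cannot be told apart in this pair, where 11.5% of genes passed the size rule (7.76% higher, 3.72% lower). This pair also differs in Xist (262 and 24.2 TMM CPM) and Ddx3y (0.307 and 35.9), which cannot be told apart from the treatment. Of the members only Phlda3 passed, at 1.03 (0.71 to 1.37). Cdkn2c was higher by 0.60 (0.47 to 0.72), Cdkn2d had a ratio of -0.78 (-0.83 to -0.72) and Ccng1 one of -0.44, none of which reached 2-fold. The edgeR model of the 4 MEP1 libraries against the lone No treatment library called 1.9% of genes (0.6% rose, 1.3% fell) and 0 of the 9 members, with 0 at an unadjusted p below 0.05, and DESeq2 called 0. The member with the smallest p was Ccng1 (-0.64, SE 0.29, edgeR adjusted p = 0.296), lower than in No treatment in 4 of 4 libraries. In the same model 6 of 7 macrophage and monocyte markers fell; their part in the members' values was not tested.

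The inhibitors were read against MEP1+CMC, a library that the next 3 comparisons share. The 6 erythroid and platelet markers summed to 278 TMM CPM there (1282 in No treatment) and to 44.2 with metformin, 72.3 with rapamycin and 42.1 with both, and their part in the members' ratios was not tested. Rapamycin alone against MEP1+CMC passed the size rule in 11.0% of genes (5.14% higher, 5.83% lower) and 2 members, both CDK inhibitors and both lower. Cdkn2c had a log2 ratio of -1.80 (-2.00 to -1.60) and Cdkn1a one of -1.44 (-1.70 to -1.19). Ccng1 (-0.81), Mdm2 (-0.65) and Phlda3 (-0.57) were lower and Cdkn2d (0.60), Ccnd2 (0.59) and Cdkn1b (0.40) higher by less than 2-fold. Other scalings raised the median of all genes by up to 0.16 here, and the split over all genes went from 660 higher and 748 lower to 897 and 581 with library totals; the members' directions held.

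Metformin alone against MEP1+CMC passed in 5.61% of genes (2.65% higher, 2.96% lower) and in 1 member, Phlda3, at -1.12 (-1.48 to -0.77). With library totals that ratio was -0.97, and the split over all genes went from 340 higher and 380 lower to 502 and 299. Cdkn1a (-0.88, -1.07 to -0.68) and Cdkn2c (-0.77, -0.91 to -0.64) were lower without reaching 2-fold. Both inhibitors against MEP1+CMC passed in 6.69% of genes (3.01% higher, 3.68% lower) and in 1 member, Cdkn1a, at -2.36 (-2.65 to -2.08). With library totals the split over all genes went from 387 higher and 472 lower to 507 and 403, with Cdkn1a still past the rule. That ratio lay at the 0.685th percentile of the 12838 genes tested. Cdkn2c had a ratio of -0.86, and Ccnd2 (0.45) and Cdkn2d (0.52) were higher by less than 2-fold.

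Each inhibitor was also measured on top of the other, in pairs of libraries that do not share MEP1+CMC and do not stand apart in sex-linked genes. Markers of other cells did move with these pairs: the B-cell markers summed to 58.8 TMM CPM with both inhibitors against 11.3 with metformin and 19.2 with rapamycin, and the 3 NK-cell markers to 1.63 against 10.2 and 2.29. Their part in the members' ratios was not tested. Both inhibitors against metformin alone, which adds rapamycin, passed in 2.94% of genes (1.25% higher, 1.68% lower) and in 1 member, Cdkn1a, at -1.49 (-1.80 to -1.18), the 0.576th percentile. Rapamycin thus went with a Cdkn1a ratio of -1.44 without metformin and -1.49 with it, and the ratios differed by -0.04 (95% counting interval -0.44 to 0.35). Both inhibitors against rapamycin alone, which adds metformin, passed in 6.32% of genes (3.33% higher, 2.99% lower) and 0 members. The Cdkn1a ratio was -0.92 (-1.27 to -0.57) there and -0.88 without rapamycin. The same 4 libraries enter, MEP1+CMC among them, so these ratios differ by the same -0.04, which is not a second repeat. The ratio on top of rapamycin passed at -1.06 with DESeq2 size factors. It also passed at -1.08 with TMM over the filtered genes only, a setting chosen after seeing the data. The split over all genes, 427 higher and 384 lower, was 321 and 522 with the former and 308 and 553 with the latter.

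Cdkn2c did not repeat in this way. Its rapamycin ratio was -1.80 without metformin and -0.08 (-0.24 to 0.07) with it, a difference of 1.71 (1.46 to 1.97) by counting error alone. Ccng1 differed between the pairs by 1.04 (0.96 to 1.13), Phlda3 by 1.31 (0.82 to 1.80) and Mdm2 by 0.52 (0.43 to 0.60). Ccnd2 differed by -0.46, Cdkn2d by -0.52 and Cdkn1b by -0.38, each with a ratio nearer to 0 when metformin was present. All of these differences use the 4 MEP1 libraries, among them MEP1+CMC, which differs from the others in Xist and Ddx3y. They also use MEP1+Rapamycin, which had 32321936 counts, the fewest of the transferred libraries. It also had 3.13% of its counts at loci that resemble ribosomal RNA. Over all genes, 11.0% passed the size rule for rapamycin without metformin and 2.94% with it. The part of these in the members' differences was not tested. Without replicates, the spread between mice in the members' differences was not tested either.

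**Figure D4:**
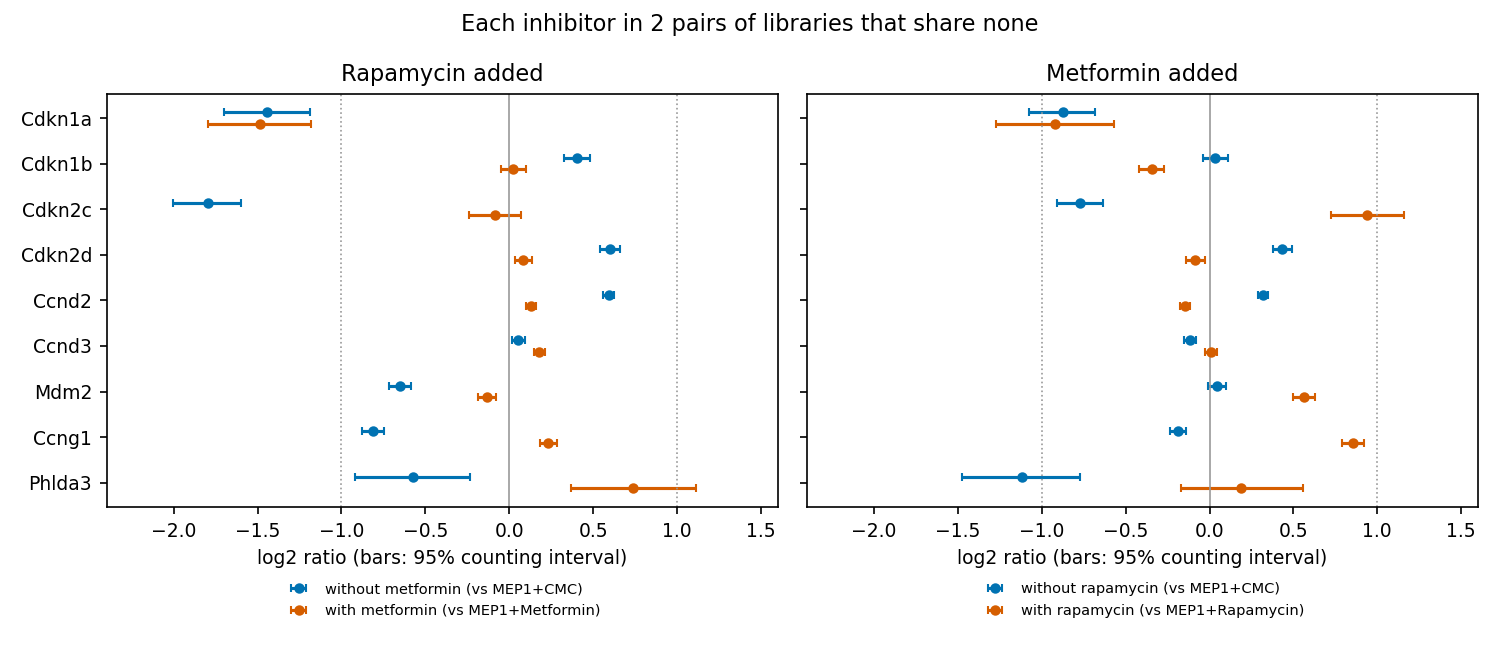
Points give log2 ratios of the 9 genes with 95% counting intervals when rapamycin (left) or metformin (right) was added without the other inhibitor (blue) or with it (orange), and dotted lines mark 2-fold. Cdkn1a has like values in both pairs (-1.44 and -1.49 for rapamycin), while Cdkn2c goes from -1.80 to -0.08.

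An additive edgeR model of the 4 MEP1 libraries gave each inhibitor a term with 1 residual degree of freedom. The rapamycin term called 0.203% of genes (0.0545% rose, 0.148% fell) and 0 of 9 members (1 at an unadjusted p below 0.05; DESeq2 0). Cdkn1a had -1.46 (SE 0.33, edgeR adjusted p = 0.079) and was lower in 2 of 2 pairs. It ranked 46 among the 12838 genes by its p-value. It was called when genes had to reach 10 CPM in a library (edgeR adjusted p = 0.0227). Cdkn1a met that minimum only through MEP1+CMC (11.4 TMM CPM), where it was highest, so the call is no separate support. Over 9 alternatives the edgeR or DESeq2 adjusted p ran from 0.0227 to 0.934. In the same term the NK-cell marker Klrb1c and Xist fell. Cdkn2c had -0.91 (SE 0.44) with an edgeR adjusted p of 0.834. The metformin term called 0.164% of genes (0.0623% rose, 0.101% fell) and 0 of 9 members (1 at an unadjusted p below 0.05; DESeq2 0), with Cdkn1a at -0.89 (SE 0.32, edgeR adjusted p = 0.676), lower in 2 of 2 pairs. Xist fell in the metformin term too. The 8 genes that rose and 13 that fell in that term became 3 and 9 with library totals.

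Other genes of the pathway were counted in 3 lists: 25 genes of the G1 machinery, 31 other p53 targets and 15 proliferation genes, of which 22, 27 and 12 were tested. In the transferred against naïve model (edgeR), which called 9.81% of all genes (4.19% rose, 5.62% fell), 1 of 22 G1 genes rose and 1 fell, close to that share. Rb1, the retinoblastoma gene, rose by 1.505 (SE 0.30, edgeR adjusted p = 0.0169) and Fbxo31, an F-box gene, fell by 0.91 (edgeR adjusted p = 0.0194). Of the 27 p53 targets 5 rose and 3 fell: Plk3 (1.96), Plk2 (1.63), Polk (1.45), Ddb2 (1.36) and Mdm4 (1.03) rose, and Bbc3 (-1.54), Trp53 itself (-0.85) and Sesn1 (-0.81) fell. Of the 12 proliferation genes 3 rose and 0 fell: Mki67 (3.53), Tk1 (2.96) and Tyms (2.08). Mki67 was low throughout, at 0.538 TMM CPM in naïve cells and 4.85 to 8.34 in transferred cells. In the other 3 models 0 genes of these lists were called.

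By the size rule, No treatment against naïve had 5 of 22 G1 genes higher and 0 lower (median log2 ratio 0.28), 7 of 27 p53 targets higher and 1 lower (0.44) and 8 of 12 proliferation genes higher and 0 lower (1.83). Over all genes 16.2% were higher and 7.53% lower, with a median of 0.08, and this split moves with the scaling, under which the lists were not recounted. Skp2, whose product targets Cdkn1b protein for degradation, was higher by 2.58, and the death gene Pmaip1 by 3.32. In MEP1+CMC against No treatment, Cdk6 (1.13) and the adhesion gene Perp (1.08) were higher and Ccnd1 (-1.44) and E2f1 (-1.09) lower. Rapamycin against MEP1+CMC, where 5.83% of all genes were lower, had 0 higher, 2 of 22 G1 genes and 3 of 27 p53 targets lower, which sets neither list apart from all genes: the pocket protein gene Rbl2 (-1.42), the E2F partner Tfdp1 (-1.11), Pmaip1 (-1.43), Perp (-1.34) and Plk3 (-1.05). Both inhibitors against MEP1+CMC had Perp (-1.38) and Pmaip1 (-1.27) lower, and metformin alone had E2f2 (1.02) higher. When rapamycin was added to metformin only Ccnd1 passed (-1.04), and when metformin was added to rapamycin Rbl2 was higher (1.19) and Tnfrsf10b (-1.31) and Gtse1 (-1.11) were lower. Rbl2 stood at 196 TMM CPM in MEP1+CMC, 168 with metformin, 73.2 with rapamycin and 168 with both inhibitors. It was lowest with rapamycin alone, as Cdkn2c was, but its log2 ratios to MEP1+CMC were -0.22 with metformin and -0.23 with both, against -0.77 and -0.86 for Cdkn2c.

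For the 4 members whose transferred levels spanned at least 2-fold, the genes with the most similar profile were sought over the 6 libraries among 8620 genes, by Pearson's r of log2(TMM CPM + 1). With 6 points that share depth and scaling, and 1 naïve library, high values are given as a description. The closest to Cdkn1a were Dus2 (0.995), Tra2b (0.990) and Epc1 (0.986), and to Cdkn2c Rbm48, Zfp523 and S1pr2 (each 0.993). The closest to Ccng1 were Idh3a (0.996), Gosr2 (0.996) and Psmd2 (0.995), and to Phlda3 Atl3 (0.974), Zbtb7a (0.972) and Csad (0.957).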

How the data were processed

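The deposited files hold the authors' raw read counts per gene over exons, as whole numbers without normalization. Trimmomatic 0.36, STAR 2.5.2b, featureCounts (Subread 1.5.2) and build GRCm38 are named per the submitters' processing notes. Strand setting, annotation release and handling of multiply aligned reads are not given in the sources used here. Symbols came from GENCODE M21 and promoters from RefSeq.

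Counts were scaled by TMM over all genes (edgeR 4.0.16, R 4.3.3; factors 0.711 in the naïve library and 0.949 to 1.15 in the others). Genes needed 2 TMM CPM and 10 counts in at least 1 library. Pair ratios have exact 95% Clopper-Pearson intervals (scipy 1.17.1, Python 3.11.15), with a floor of 3 counts. Intervals of a difference between pairs are normal approximations from the counts. Both kinds cover only counting error and treat reads as independent molecules, which they are not. Models were edgeR quasi-likelihood fits (glmQLFit, robust) with Benjamini-Hochberg adjustment over 12838 genes, called at an adjusted p below 0.05, with 4, 3 and 1 residual degrees of freedom (transferred, MEP1 and inhibitor models). Their p-values reflect the spread among these libraries alone, treatment differences included. DESeq2 1.42.0 was an alternative. Both steps were tested on simulated data.

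All 9 members are described. Of each pathway list and pair, up to 4 genes that pass the size rule were named, the greatest ratio first, and called genes for the models. Members and lists were chosen with earlier results of these data known. Alternatives were other scalings, filters and tests, and leaving out each library.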

Additional observations from a re-analysis of the deposited data

Results flagged for a closer look

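For some genes the ratio for an inhibitor had opposite directions in the pair without and the pair with the other inhibitor. With 1 library per condition the difference between the pairs was not tested, and only counting intervals are available. For rapamycin, Ccng1 had log2 ratios of -0.81 without metformin and 0.23 with it, and Phlda3 had -0.57 and 0.74. For metformin, Cdkn2c had -0.77 without rapamycin and 0.94 with it. The metformin ratios of Ccng1 were -0.19 and 0.86. Smaller opposite ratios were found for Cdkn2d (0.43 and -0.08) and Ccnd2 (0.32 and -0.15). In all of these the 95% counting interval of each ratio excludes 0. The metformin ratios of Phlda3 (-1.12 and 0.19), Cdkn1b (0.03 and -0.35) and Ccnd3 (-0.12 and 0.01) also had opposite signs, but 1 interval of each pair includes 0. Each pair without the other inhibitor is set against MEP1+CMC, the library that differs in Xist and Ddx3y from the inhibitor libraries. The same 4 libraries enter for both inhibitors, so a gene's difference between pairs is the same for each and is not a separate result.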

How the results depend on the processing

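No paired analysis was possible because each condition has 1 library. Among the members, the count of 1 that passed the size rule in MEP1+CMC against No treatment became 0 with a minimum of 10 CPM, which leaves Phlda3 untested; the count of 1 for metformin against MEP1+CMC became 0 with that minimum and 0 with library totals. The count of 0 for both inhibitors against rapamycin became 1 (Cdkn1a) with DESeq2 size factors and 1 with TMM over the filtered genes, a setting chosen after seeing the data. Members called rose from 2 to 4 with DESeq2 in the transferred against naïve model (Cdkn1a and Phlda3 added), to 3 with edgeR's legacy test (Cdkn1a added), and were 2 to 3 with a library left out. The rapamycin term went from 0 to 1 (Cdkn1a) with the 10 CPM minimum, which Cdkn1a reached only in MEP1+CMC.

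Over all genes, the size rule gave with no filter and with the 10 CPM minimum 4594 and 1591 genes for No treatment against naïve, 4449 and 473 for MEP1+CMC against No treatment, 3419 and 207 for metformin, 5979 and 530 for rapamycin and 3322 and 292 for both against MEP1+CMC, 2577 and 76 for both against metformin and 4886 and 205 for both against rapamycin. Against TMM, library totals moved the median log2 ratio of all genes by 0.42 for No treatment against naïve and by 0.11, 0.15, 0.16 and 0.12 for the next 4 pairs, and DESeq2 size factors moved it by -0.14 for both against rapamycin.

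The transferred against naïve model called 1259 genes, 3729 with DESeq2, 2287 with edgeR's legacy quasi-likelihood test, 2672 with library totals and 693 to 2998 with 1 library left out (693 without both inhibitors, 746 without metformin, 2998 without No treatment). MEP1 against No treatment called 244, and 1149 with DESeq2, 390 with no filter, 144 with the 10 CPM minimum, 136 with library totals and 131 to 323 with 1 library left out (131 without metformin). The rapamycin term called 26, and 77 with DESeq2, 41 with the legacy test, 60 with the 10 CPM minimum and 17 with library totals. It called 13 without the metformin term and 0 with no filter (846 at an unadjusted edgeR p below 0.05). The metformin term called 21, and 40 with DESeq2 and 12 with each of the 10 CPM minimum, library totals and TMM over the filtered genes. It called 0 with no filter (1030 at an unadjusted edgeR p below 0.05) or without the rapamycin term (855). DESeq2 was run only with the main filter and both inhibitor terms, so it has no count for these settings. The cause was not tested. Leaving a library out of the inhibitor model leaves no residual degrees of freedom, so it was not run. No called fold change of the 9 members changed sign under the alternatives run; signs of other genes were not compared. Phlda3, with 14 counts in naïve cells, and Cdkn1a, with 10, are limited by depth there.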
